A study of Homo sapiens with 44 samples.

Results

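The TRIM (tripartite motif) family was followed through the response of OVCAR5 cells, an ovarian carcinoma line, to cytokines that T cells release. Members were the protein-coding genes whose symbol is TRIM plus a number, with or without a letter, and whose mean level reached 0.5 TPM (a relative transcript level corrected for effective length) in at least 1 of 11 treatments. Of 33538 genes in each table, 73 carried such a symbol and 46 of them were members. Of the 27 others, 10 were at 0 TPM in all 44 libraries. The lowest member, TRIM55, had a highest treatment mean of 0.50 TPM, and the genes just below the limit, TRIM40 and TRIM17, had 0.275 and 0.265 TPM.

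All cells carried a reporter of IFNγ sensing and were positive for the fluorescent protein CFP. They were left unstimulated or received IFNγ at 0.01, 1 or 100 ng/ml, TNFα at 0.1, 1 or 10 ng/ml, or IFNγ at 100 ng/ml with TNFα at 10 ng/ml (the combination). The other cells received medium conditioned by tumor cells cultured with T cells, diluted 1/2, 1/200 or 1/20000 (supernatant). Each treatment was kept on for 2, 6, 12 or 24 h, and each treatment and duration was measured in 1 library of polyadenylated RNA. The 4 libraries of a treatment are thus 4 durations. They are not stated to be separate cultures, so p-values measure only the spread of these libraries around the fitted course.

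TRIM proteins share a RING finger, B-box zinc fingers and a coiled coil, in that order, and most act as ubiquitin ligases. The RING finger binds the enzyme that carries ubiquitin, and the variable C-terminal part, often a PRY-SPRY domain, selects the target. Many members restrict viruses or tune signaling by RNA sensors, interferon receptors and NF-κB, while others act in transcription, the cytoskeleton or development. Several are textbook interferon-induced genes.

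In these cells the members raised by IFNγ and by TNFα overlapped in part. TRIM22, TRIM69, TRIM38, TRIM31, TRIM5, TRIM26 and TRIM44 were higher under IFNγ 100 ng/ml and did not pass the test under TNFα 10 ng/ml. TRIM8, TRIM36, TRIM47, TRIM29 and TRIM27 were higher under TNFα and did not pass the test under IFNγ. TRIM21, TRIM56, TRIM14 and TRIM25 were higher under both cytokines, TRIM6 was lower under both, and TRIM16 fell under IFNγ and rose under TNFα. Of 16 alternative fits (8 other settings and 8 that each leave out 1 library compared), the TNFα call of TRIM56 (0.45 ± 0.15 on the log2 scale, adjusted p = 0.0297) held in 6, that of TRIM29 in 9 and that of TRIM27 in 11, and the IFNγ call of TRIM6 held in 8. The largest rise was that of TRIM22, from a mean of 0.329 TPM in unstimulated cells to 65.6 TPM under the combination.

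Fold changes below are fitted log2 values ± SE from all 44 libraries, for 4 libraries against 4 (n = 4) unless stated otherwise, taken at the mean of log2 duration. Adjusted p-values are from the quasi-likelihood F test of edgeR over 14469 genes, and a gene was called at an adjusted p under 0.05. All 46 members entered the test.

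The sequence upstream of interferon-regulated genes often holds elements bound by interferon regulatory factors (the ISRE) or by NF-κB (the κB element). RefSeq start-site windows of GRCh38.p14, each of 300 bases, were at hand for 33 of the 46 members, in 48 windows. The windows were searched on both strands for GAAANNGAAA, the core of the ISRE, and for the κB consensus. TRIM22 and TRIM8 were among the members without a window, so their start sites were not searched. The ISRE core was in 3.57% of all 35116 windows and in 9 of the 48 member windows (18.8%), those of TRIM2, TRIM5, TRIM14, TRIM16, TRIM21, TRIM26, TRIM34, TRIM44 and TRIM69. The κB consensus was in 11.3% of all windows and in 3 of the 48 (6.25%), those of TRIM2, TRIM14 and TRIM31. The 48 windows overlap for some genes, and a match is a description of letters, not a binding site. Of the members with the ISRE core, TRIM5, TRIM14, TRIM21, TRIM26, TRIM44 and TRIM69 were called higher under IFNγ 100 ng/ml. TRIM16 was called lower there, and TRIM2 and TRIM34 were not called. Of the members with the κB consensus, TRIM14 was called higher under TNFα 10 ng/ml, TRIM2 lower, and TRIM31 was not called. Whether matches go with responses was not tested. The matches of 4 members with large rises are shown 5′ to 3′ on the strand of the gene with the matched letters in capitals. For TRIM21, TRIM34 and TRIM69 they are the ISRE core, which reads as its reverse complement in TRIM34 and TRIM69. For TRIM31 they are the κB consensus.
TRIM21 (chr11:4393663-4393692, minus strand, from base 11 to base 40 of the transcript): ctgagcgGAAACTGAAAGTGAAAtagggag
TRIM34 (chr11:5624871-5624960, plus strand): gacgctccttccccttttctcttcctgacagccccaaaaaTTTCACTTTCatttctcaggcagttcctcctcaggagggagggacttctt
TRIM69 (chr15:44736426-44736515, plus strand): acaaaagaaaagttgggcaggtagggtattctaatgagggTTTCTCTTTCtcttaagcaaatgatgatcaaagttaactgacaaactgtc
TRIM31 (chr6:30113174-30113264, minus strand): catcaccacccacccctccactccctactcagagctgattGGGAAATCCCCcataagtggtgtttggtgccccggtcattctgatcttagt

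The match of TRIM21 holds 2 overlapping copies of the core and starts 18 bases into the transcript. The match of TRIM34 starts 90 bases and that of TRIM69 62 bases before the start site. The κB match of TRIM31 starts 134 bases before it.

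Before stimulation the family spanned a wide range of levels. TRIM28, a corepressor that zinc finger proteins bring to chromatin, had 605 TPM (575 to 644 over the 4 unstimulated libraries), which was 45.2% of the summed TPM of the members. TRIM25, which ubiquitinates the RNA sensor RIG-I, followed at 128 TPM (95.2 to 160). A further 20 members lay between 10 and 100 TPM and 19 between 1 and 10 TPM. TRIM36, TRIM31, TRIM15, TRIM55 and TRIM22 were under 1 TPM, and TRIM22 was the lowest of all at 0.329 TPM (0.131 to 0.806). The ranges of TRIM28, TRIM25 and the third member, TRIM47 (51.7 to 80.2 TPM), did not overlap. TRIM22 and TRIM55 were under 0.5 TPM in unstimulated cells, so both entered the family list only through treated cells.

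Under IFNγ 100 ng/ml, 11 of the 46 members were higher and 4 lower, where 9.38% of all genes were higher and 6.47% lower. Under TNFα 10 ng/ml, 10 members were higher and 8 lower, where the shares of all genes were 14.3% and 10.1%. The combination raised 19 members and lowered 13, beside 23.5% and 22.4% of all genes. Supernatant 1/2 raised 18 and lowered 10, beside 22.6% and 20.8%. As shares of the 46, the higher members came to 23.9%, 21.7%, 41.3% and 39.1% in these comparisons. The medians of the members stayed near 0, at 0.03, 0.01, 0.08 and 0.04 on the log2 scale, beside -0.01, 0.00, -0.02 and -0.02 for all genes. The comparisons share the 4 unstimulated libraries. TRIM11, TRIM33, TRIM35, TRIM41, TRIM55, TRIM65 and TRIM73 were called in none of the 4 comparisons.

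**Figure D1:**
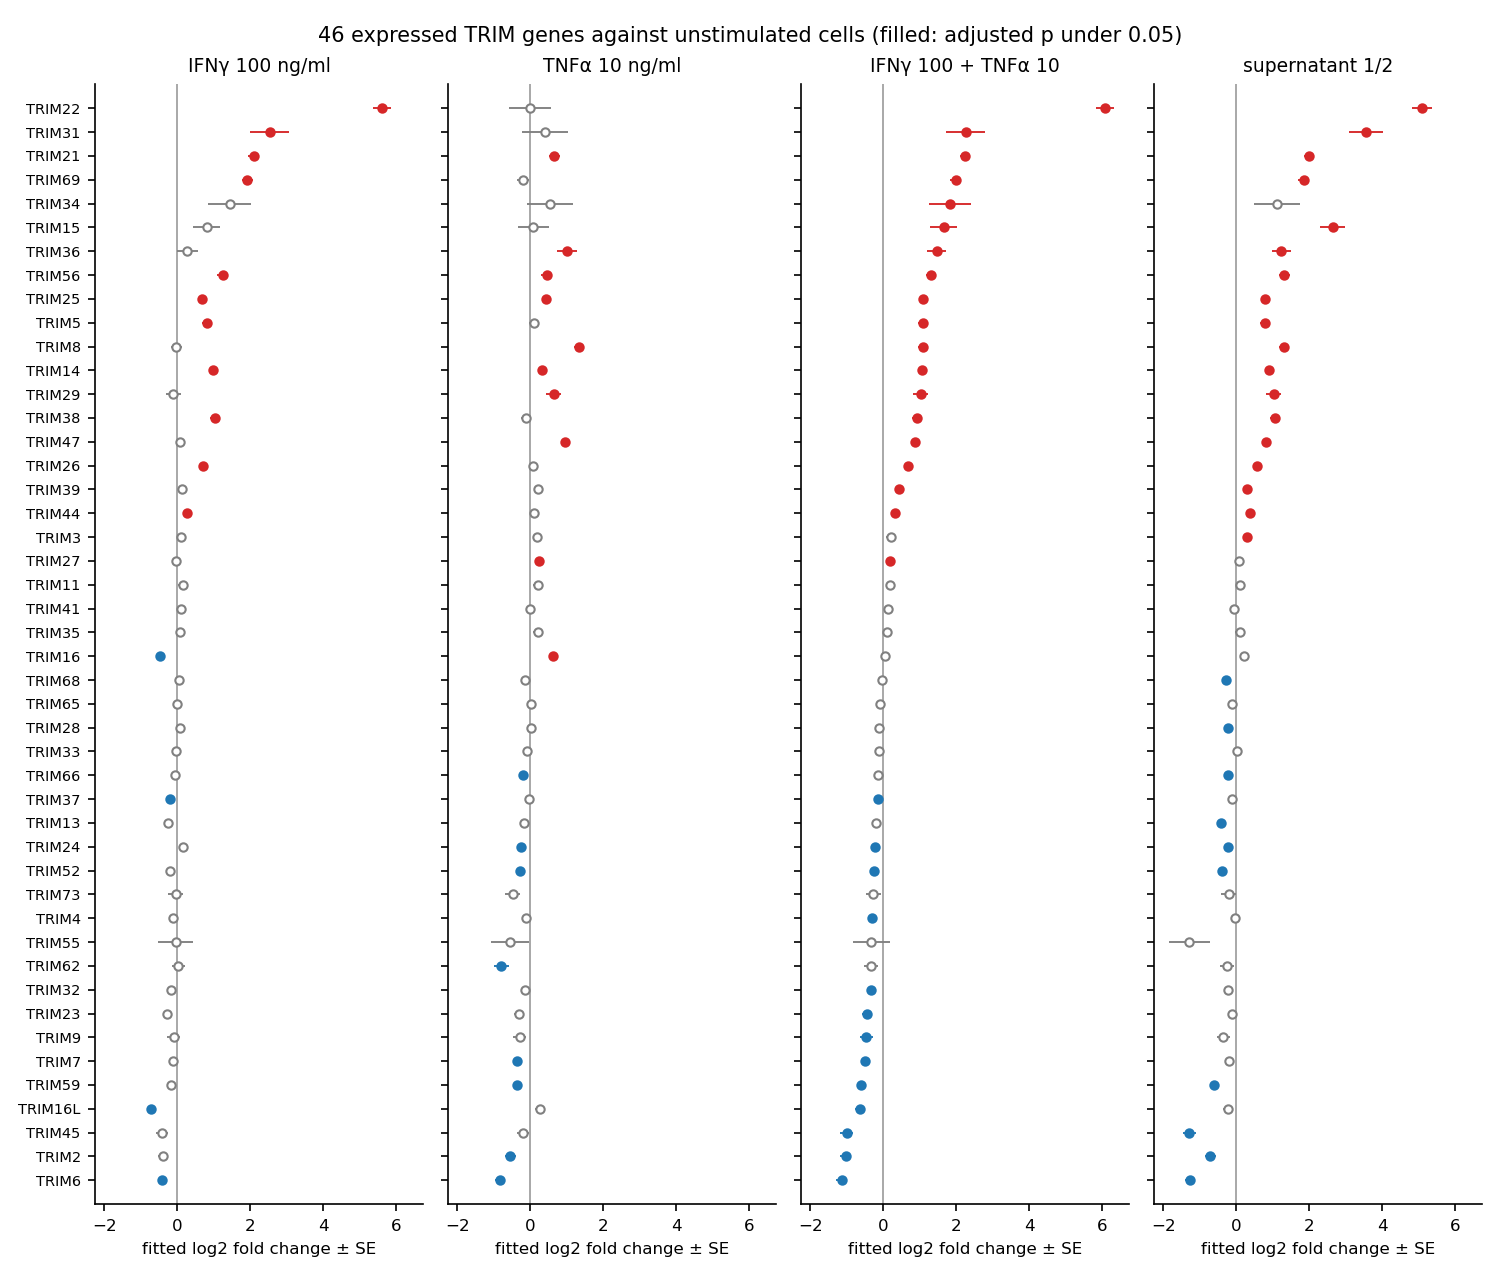
Fitted log2 fold change ± SE (horizontal axis) of the 46 TRIM members (vertical axis, ordered by the combination) against unstimulated cells in 4 comparisons; filled red points were called higher, filled blue points called lower and open grey points not called. TRIM22 stands at 5.60, 6.08 and 5.08 under IFNγ, the combination and supernatant 1/2 and at -0.01 under TNFα, while TRIM8 stands at 1.34 under TNFα and -0.03 under IFNγ.

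TRIM22, which restricts several viruses and lies beside TRIM5 on chromosome 11, had 0.136, 0.131, 0.241 and 0.806 TPM at 2, 6, 12 and 24 h in unstimulated cells. Under IFNγ 100 ng/ml it had 0.966, 9.84, 44.6 and 112.5 TPM. Under the combination it reached 0.688, 10.6, 67.9 and 183.3 TPM, and under supernatant 1/2 it reached 0.621, 4.92, 38.2 and 103.9 TPM. From 6 h on, each library with strong IFNγ or supernatant was above all unstimulated libraries, whereas at 2 h the combination and supernatant libraries were within the unstimulated range and the IFNγ library was just above it. TNFα 10 ng/ml left it at 0, 0.191, 1.25 and 0.470 TPM. The fitted log2 fold changes were 5.60 ± 0.25 under IFNγ (adjusted p = 1.81e-15), 6.08 ± 0.25 under the combination (5.65e-17) and 5.08 ± 0.27 under supernatant 1/2 (2.9e-14). The base of these ratios is thin, with 4, 4, 7 and 21 counts in the unstimulated libraries. Leaving out the unstimulated 2 h library moved the values to 6.46, 6.93 and 5.94. TRIM22 gained 1.20 ± 0.38 log2 units per doubling of duration under the combination (adjusted p = 0.025) and 1.18 ± 0.38 under supernatant 1/2 (0.0345). Under IFNγ the slope was 0.76 ± 0.37 (0.341). Without the unstimulated 2 h library the slopes under the combination and supernatant were 0.49 (0.65) and 0.47 (0.6685).

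TRIM21, an intracellular antibody receptor that sends antibody-bound virus to the proteasome, had 14.5, 12.2, 14.3 and 17.9 TPM in unstimulated cells. It had 33.8, 65.6, 65.9 and 73.4 TPM under IFNγ 100 ng/ml and 24.6, 67.3, 73.0 and 74.3 TPM under the combination. Supernatant 1/2 gave 25.8, 53.5, 72.5 and 65.5 TPM. Already at 2 h all libraries of these 3 treatments were above the highest unstimulated one. The log2 fold changes were 2.09 ± 0.14 under IFNγ (adjusted p = 4.11e-11), 2.24 ± 0.14 under the combination (2.55e-12) and 1.99 ± 0.14 under supernatant 1/2 (2.83e-11). TNFα 10 ng/ml gave 13.4, 29.7, 21.1 and 22.1 TPM, with a smaller rise of 0.66 ± 0.15 (adjusted p = 0.00172). That call was lost when only the libraries compared were fitted (adjusted p = 0.0592) and when only 2 and 6 h were (0.104).

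TRIM69, a member linked to restriction of vesicular stomatitis virus, had 13.8, 20.7, 22.2 and 24.9 TPM in unstimulated cells. IFNγ 100 ng/ml gave 22.5, 89.9, 99.6 and 133.6 TPM, the combination 35.7, 85.0, 81.9 and 102.3 TPM, and supernatant 1/2 25.4, 66.3, 83.8 and 117.9 TPM. All libraries from 6 h on were above the unstimulated range. TNFα gave 8.13, 11.8, 10.9 and 22.1 TPM, each below the unstimulated library of the same duration. In counts relative to library size, the log2 ratios were -0.002, -0.06, -0.51 and -0.30 at 2, 6, 12 and 24 h, so counts hardly differed at 2 and 6 h. The fitted log2 fold change of -0.21 ± 0.17 under TNFα did not pass the test (adjusted p = 0.42). The rises were 1.92 ± 0.16 under IFNγ (adjusted p = 2.23e-09), 1.98 ± 0.16 under the combination (3.39e-10) and 1.84 ± 0.16 under supernatant 1/2 (1.35e-09). With only 2 and 6 h the IFNγ call was lost (0.0707). The direct contrast of IFNγ 100 with TNFα 10 ng/ml was 2.13 ± 0.16 (adjusted p = 5.47e-10).

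TRIM31, a ligase that acts on the antiviral adaptor MAVS, was scarce in unstimulated cells, with 2, 1, 8 and 10 counts or 0.0869, 0.303, 0.722 and 1.55 TPM. IFNγ 100 ng/ml gave 0.575, 1.10, 1.44 and 9.05 TPM and supernatant 1/2 gave 1.10, 2.78, 3.10 and 5.65 TPM. Each of these libraries was above the unstimulated one of its duration, but the groups overlapped. The log2 fold changes were 2.53 ± 0.54 under IFNγ (adjusted p = 0.00111), 2.25 ± 0.54 under the combination (0.0011) and 3.56 ± 0.47 under supernatant 1/2 (4.46e-07). Under TNFα alone the value was 0.40 ± 0.63 (0.702). With only 2 and 6 h the IFNγ call was lost (0.21).

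TRIM15, known for a role at focal adhesions, rose most under supernatant. Unstimulated cells had 0.951, 0.844, 0.240 and 0.445 TPM and supernatant 1/2 gave 1.70, 2.97, 2.94 and 3.14 TPM, with no overlap. In counts these were 9, 6, 5 and 9 against 38, 49, 49 and 32. The log2 fold change was 2.63 ± 0.33 under supernatant 1/2 (adjusted p = 2.18e-07) and 1.65 ± 0.36 under the combination (0.000404). Under IFNγ alone it was 0.80 ± 0.38 (0.166) and under TNFα alone 0.08 ± 0.41 (0.915). The combination call was lost when only the libraries compared were fitted (0.0557) and with only 2 and 6 h (0.178).

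TRIM36, a microtubule-associated member, was counted 31, 19, 11 and 16 times in unstimulated cells. TNFα 10 ng/ml gave 32, 42, 32 and 27 counts and the combination 35, 49, 29 and 57. Each of these 8 counts was above the unstimulated count of its duration, by 1 count at 2 h under TNFα. The log2 fold changes were 1.01 ± 0.27 under TNFα (adjusted p = 0.00604), 1.46 ± 0.26 under the combination (3.79e-05) and 1.23 ± 0.26 under supernatant 1/2 (0.000383). When only the libraries compared were fitted, the TNFα and supernatant calls were lost (0.0768 and 0.0525). The TNFα call was also lost with only 2 and 6 h (0.232) and with only 12 and 24 h (0.0861), and the other 2 calls with only 2 and 6 h (0.0507 and 0.0978). The level per length did not follow under TNFα, since the mean was 0.893 TPM in both groups while mean CPM (counts relative to library size) were 2.97 and 1.58. TPM is divided by an effective transcript length set in each library, and whether transcript forms of TRIM36 changed was not tested. Such gaps were not limited to TRIM36. The mean of TRIM29 under TNFα was 1.06 times the unstimulated one in TPM and 1.45 times in CPM. For TRIM31 under IFNγ these ratios were 4.565 and 8.58, and for TRIM56 under TNFα they were 1.92 and 1.33. For TRIM22 under the combination they were 199.6 and 144.

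TRIM8, a member that raises NF-κB activity in cells given TNFα, had 24.7, 29.7, 33.3 and 34.4 TPM in unstimulated cells and 46.2, 83.8, 104.0 and 85.1 TPM under TNFα 10 ng/ml. The groups did not overlap. IFNγ 100 ng/ml left it at 28.4, 26.98, 30.2 and 35.1 TPM. The combination gave 34.7, 55.7, 63.8 and 85.7 TPM and supernatant 1/2 gave 36.3, 68.4, 77.1 and 136.7 TPM, all above the unstimulated range. The log2 fold changes were 1.34 ± 0.14 under TNFα (adjusted p = 1.44e-07), -0.03 ± 0.15 under IFNγ (0.926), 1.08 ± 0.14 under the combination (1.11e-06) and 1.30 ± 0.14 under supernatant 1/2 (7.12e-08). With only 2 and 6 h the combination and supernatant calls were lost (0.0715 and 0.0569). Under supernatant 1/2 the rise grew by 0.45 ± 0.11 log2 units per doubling of duration (adjusted p = 0.00606), and by 0.44 (0.169) without the unstimulated 2 h library.

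**Figure D2:**
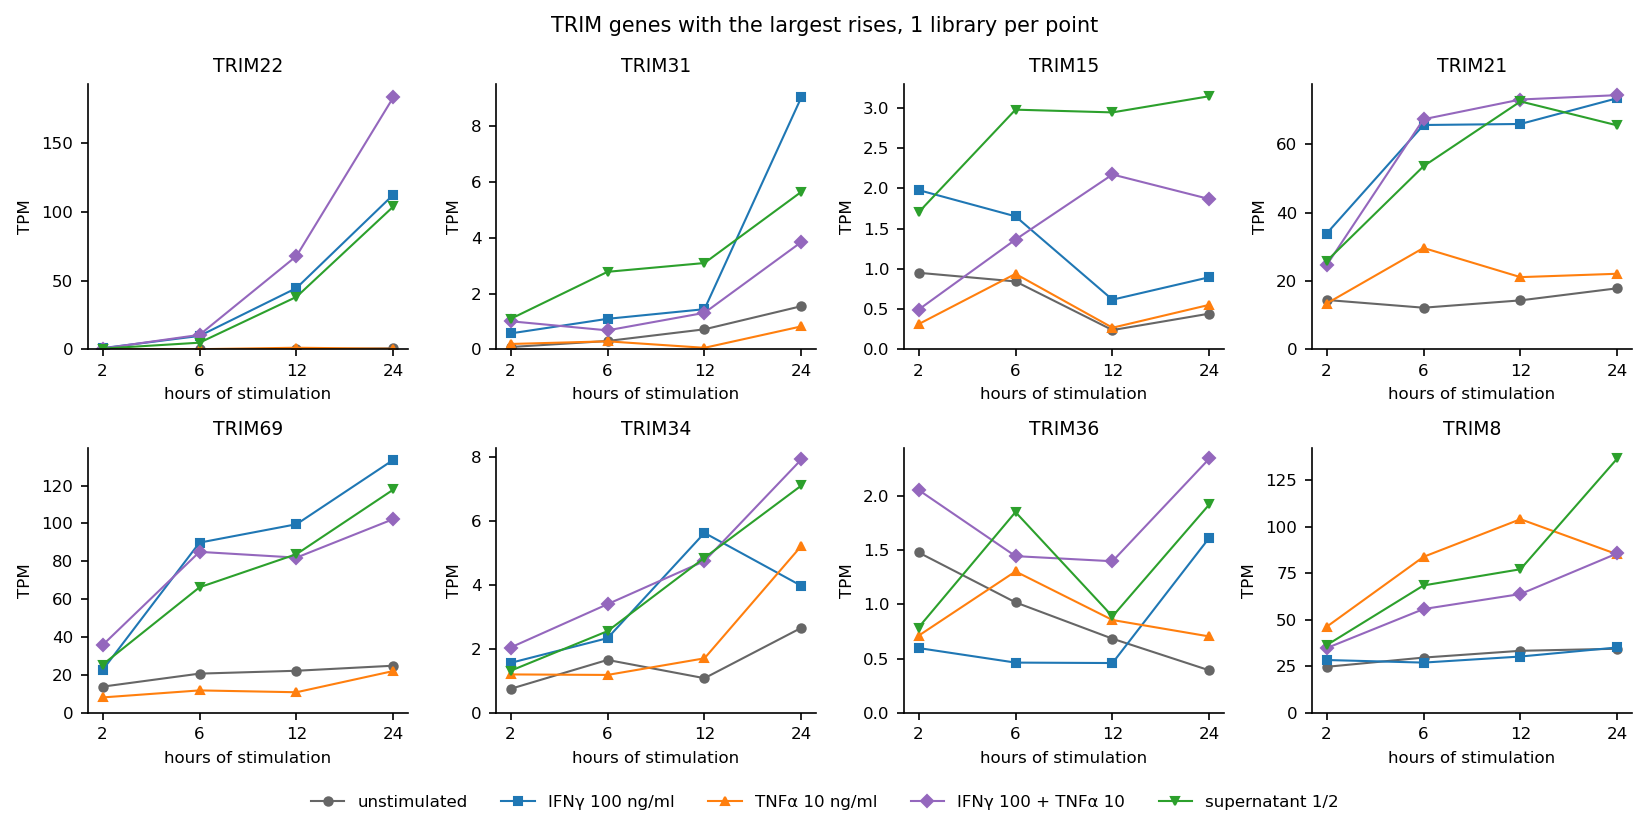
TPM (vertical axis, linear from 0) by hours of stimulation (horizontal axis, equal steps) of the 8 members with the largest fold changes, 1 library per point, for unstimulated cells and 4 strong treatments. TRIM22 climbs to 183.3 TPM at 24 h under the combination, TRIM21 goes from 65.6 TPM at 6 h to 73.4 TPM at 24 h under IFNγ, and TRIM8 rises with TNFα (104.0 TPM at 12 h) but not with IFNγ alone.

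TRIM22 and 3 relatives form a gene cluster on chromosome 11, where the v29 GENCODE annotation on GRCh38 places TRIM6 at 5596109 to 5612958, TRIM34 at 5619764 to 5644398, TRIM22 at 5689689 to 5737089 and TRIM5 at 5663557 to 5938619. TRIM5, the capsid-binding restriction factor of retroviruses, runs on the opposite strand over TRIM22, and the strand counted by the authors is not given, so reads of the pair cannot be told apart with certainty. TRIM5 had 8.13, 7.92, 11.2 and 17.7 TPM in unstimulated cells and 8.84, 16.04, 19.2 and 29.1 TPM under IFNγ 100 ng/ml. The groups overlapped, as levels rose with duration in both, and TRIM5 was higher than in the unstimulated library at each duration. Its log2 fold changes were 0.81 ± 0.14 under IFNγ (adjusted p = 0.000106), 1.08 ± 0.14 under the combination (4.69e-07), 0.77 ± 0.14 under supernatant 1/2 (6.55e-05) and 0.10 ± 0.14 under TNFα (0.672). The IFNγ call was lost when only the libraries compared were fitted (0.0992), and with only 2 and 6 h the 3 calls were lost (0.757, 0.1655 and 0.229).

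TRIM34, a partner of TRIM5 in capsid restriction, had 0.748, 1.65, 1.08 and 2.66 TPM in unstimulated cells and 2.04, 3.39, 4.74 and 7.91 TPM under the combination. The log2 fold change was 1.81 ± 0.58 (adjusted p = 0.0137). The call was lost without the unstimulated 2 h library (0.1065), without the 2 h combination library (0.0735) and without the 24 h one (0.054). With only 2 and 6 h (0.339) or only 12 and 24 h (0.0518) it was lost as well. A read-through gene, TRIM6-TRIM34, overlaps TRIM34 on the same strand. When the counts of the pair were summed, an alternative chosen after seeing the data, the fold change became 0.77 under the combination and 0.67 under supernatant 1/2 (adjusted p = 0.00908), where TRIM34 alone had 1.11 ± 0.62 (0.158).

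TRIM6, which in the type I interferon pathway makes unanchored ubiquitin chains that activate IKKε, went the other way from its neighbours. It had 6.70, 6.38, 8.48 and 9.52 TPM in unstimulated cells, 4.82, 1.82, 2.20 and 3.39 TPM under the combination and 4.63, 1.93, 3.61 and 2.65 TPM under supernatant 1/2. No library of these treatments reached the unstimulated range. TNFα 10 ng/ml gave 4.53, 2.54, 6.87 and 5.92 TPM. Its log2 values fell by 1.15 ± 0.14 under the combination (adjusted p = 1.06e-07), by 1.28 ± 0.14 under supernatant 1/2 (1.84e-08) and by 0.83 ± 0.14 under TNFα (2.68e-05). With only 2 and 6 h the TNFα call was lost (0.0998). Under IFNγ alone the value was -0.41 ± 0.13 (adjusted p = 0.0295), a call lost without the unstimulated 6 h (0.15) or 12 h library (0.0714) and without the IFNγ 24 h (0.234) or 2 h library (0.375). The read-through gene TRIM6-TRIM34 overlaps TRIM6 on the same strand as well, with a mean of 0.824 TPM beside 5.72 TPM. Its counts were not summed with those of TRIM6.

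TRIM45, a member with a filamin domain that dampens MAP kinase signaling, had 2.83, 2.36, 2.60 and 3.56 TPM in unstimulated cells. It had 2.04, 0.793, 1.01 and 0.630 TPM under the combination and 1.14, 0.797, 0.489 and 0.771 TPM under supernatant 1/2. Every library of these treatments was below the unstimulated range. The log2 values fell by 1.00 ± 0.18 (adjusted p = 2.82e-05) and by 1.29 ± 0.18 (9.63e-07). With only 2 and 6 h both calls were lost (0.0984 and 0.0714), and the combination call also when only the libraries compared were fitted (0.0532). Neither cytokine alone passed the test, with -0.42 ± 0.16 under IFNγ (0.0791) and -0.20 ± 0.16 under TNFα (0.401).

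TRIM2, a ligase of neurofilament light chain in mouse neurons, had 1.89, 2.85, 2.65 and 6.33 TPM in unstimulated cells and 2.22, 1.63, 0.662 and 1.56 TPM under the combination. The fall was absent at 2 h and present from 6 h on. It fell by 1.03 ± 0.15 under the combination (adjusted p = 2.76e-06), by 0.72 ± 0.15 under supernatant 1/2 (0.000235) and by 0.55 ± 0.15 under TNFα (0.00556). Under IFNγ it was -0.40 ± 0.14 (0.0608), and it was called without the IFNγ 12 h library (-0.50, 0.0266) or the unstimulated 24 h library (-0.53, 0.0277). The combination, supernatant and TNFα calls were lost when only the libraries compared were fitted (0.136, 0.0986 and 0.0723). With only 2 and 6 h these calls were lost as well (0.533, 0.366 and 0.355). Under the combination the effect fell by 0.63 ± 0.11 log2 units per doubling of duration (adjusted p = 0.000223), with -0.50 (0.0828) without the unstimulated 2 h library.

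TRIM62, known as a suppressor of breast tumor growth in mice, had 0.905, 1.19, 2.46 and 1.77 TPM in unstimulated cells and 0.332, 1.30, 1.17 and 0.901 TPM under TNFα 10 ng/ml. The groups overlapped. The log2 value fell by 0.80 ± 0.21 under TNFα (adjusted p = 0.00477), a call lost without the TNFα 2 h library (-0.41, 0.246) or the 24 h library (-0.53, 0.0877). With only 2 and 6 h (0.224) or only the libraries compared (0.0596) the TNFα call was lost as well. The log2 value was -0.34 ± 0.20 under the combination (0.169) and -0.25 ± 0.19 under supernatant 1/2 (0.32). Without the 2 h combination library the former was called (-0.78, 0.0148).

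**Figure D3:**
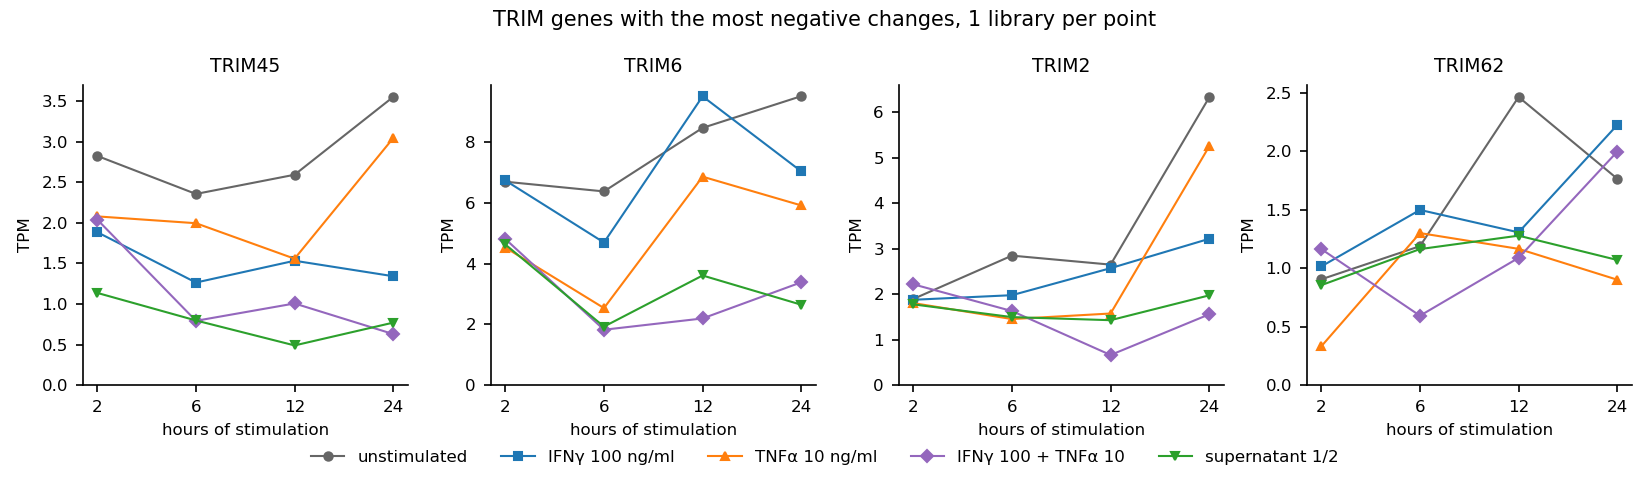
TPM (vertical axis, linear from 0) by hours of stimulation (horizontal axis, equal steps) of the 4 members with the most negative fold changes, 1 library per point. TRIM45 and TRIM6 are below all unstimulated libraries at every duration under the combination and supernatant 1/2, and TRIM62 is lowest at 2 h under TNFα (0.332 TPM).

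Members were also grouped by structural class, in which the C-terminal part sets the class. Class C-IV, with a PRY-SPRY domain or SPRY domain, held 21 members including TRIM5, TRIM21, TRIM22 and TRIM25. Of these, 7 were higher and 1 lower under IFNγ, 4 and 3 under TNFα, 12 and 3 under the combination, and 10 and 2 under supernatant 1/2. The shares of all genes were 9.38% and 6.47%, 14.3% and 10.1%, 23.5% and 22.4%, and 22.6% and 20.8%, and under TNFα the class lay near them. TRIM25, its most abundant member, had 160.0, 139.6, 115.9 and 95.2 TPM in unstimulated cells and 289.1, 272.4, 247.6 and 242.8 TPM under the combination, without overlap. Its log2 value rose by 0.67 ± 0.05 under IFNγ (adjusted p = 1.31e-11), 0.44 ± 0.05 under TNFα (4.66e-08), 1.09 ± 0.05 under the combination (1.36e-16) and 0.77 ± 0.05 under supernatant 1/2 (2.35e-13).

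Class C-V, with no known C-terminal domain, held 5 members: TRIM8, TRIM31, TRIM52, TRIM56 and TRIM73. Under the combination 3 of them rose and 1 fell, beside 23.5% and 22.4% of all genes. The counts were the same under supernatant 1/2, beside 22.6% and 20.8%. Class C-VI, chromatin proteins with a PHD finger and bromodomain, held 4 members and had none higher in any of the 4 comparisons. Between 9.38% and 23.5% of all genes were higher in them, so 4 members are too few to set the class apart. TRIM28 went from 615.5, 643.9, 587.1 and 575.1 TPM in unstimulated cells to 552.8, 512.5, 447.0 and 368.7 TPM under supernatant 1/2, with no overlap and a log2 value that fell by 0.23 ± 0.05 (adjusted p = 0.000455). The call was lost without the 2 h supernatant library (-0.15, 0.055). TRIM24, a coactivator of nuclear receptors, fell by 0.24 ± 0.07 under the combination (adjusted p = 0.00839), a call lost without the combination 2 h (0.148) or 24 h library (0.0522) or the unstimulated 24 h library (0.0642). TRIM33, of the same class, was called in none of the 4.

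Class C-VII, with NHL repeats, held TRIM2, TRIM3 and TRIM32. TRIM32, a ligase mutated in a form of muscular dystrophy, fell by 0.35 ± 0.11 under the combination (adjusted p = 0.00855), a call that held in 9 of 16 alternatives and was lost without the 2 h (0.131) or 24 h combination library (0.0598) or the 2 h (0.0878) or 24 h unstimulated library (0.0556). TRIM37, a peroxisomal and centrosomal ligase and the only member of class C-VIII, fell by 0.21 ± 0.06 under IFNγ (adjusted p = 0.0107). That call held in 10 of 16 alternatives and was lost without the IFNγ 2 h (0.319) or 24 h library (0.116) or the unstimulated 2 h library (0.107). Its call under the combination held in 6 of 16. TRIM23, the only C-IX member, which carries an ARF domain, fell by 0.45 ± 0.13 under the combination (0.00652), a call lost without the combination 2 h (0.217) or 24 h library (0.0759) or the unstimulated 2 h library (0.191). TRIM9, of class C-I with TRIM36, had -0.46 ± 0.18 under the combination (0.037), a call that held in 7 of 16 alternatives, with values from -0.97 to -0.30. TRIM59, of class C-XI with a transmembrane segment, fell from 39.98, 42.95, 36 and 35.5 TPM in unstimulated cells to 34.95, 28.9, 16.4 and 13.8 TPM under the combination, by 0.62 ± 0.06 (5.77e-09). The abundant gene SMC4 overlaps TRIM59 on the opposite strand, with a mean of 322.5 TPM beside 30.9 TPM. TRIM55, the only C-II member, had few counts and was called in none of the 4.

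The 5 members without a RING finger were TRIM14, TRIM16, TRIM16L, TRIM29 and TRIM44. TRIM14, an adaptor at mitochondria in antiviral signaling, had 11.5, 14.55, 11.25 and 10.1 TPM in unstimulated cells and 12.0, 26.05, 27.2 and 26.8 TPM under IFNγ. The 2 h library was within the unstimulated range and the later ones above it. It rose by 0.97 ± 0.08 (adjusted p = 1.7e-10), and by 0.33 ± 0.08 under TNFα (0.00266). TRIM14 shares part of its place with NANS on the opposite strand. TRIM16L, a short copy of the stress-response gene TRIM16, fell by 0.71 ± 0.13 under IFNγ (0.000283), and its value under TNFα was 0.25 ± 0.12 (0.148). TRIM16 fell by 0.49 ± 0.09 under IFNγ (0.000403) and rose by 0.62 ± 0.09 under TNFα (7.53e-06). TRIM16 and TRIM16L are near-identical copies that share reads, so how their counts were split is uncertain.

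A set of 4 members on chromosome 6, chosen after their values were seen, lies between 30102897 and 30343729: TRIM31, TRIM15, TRIM26 and TRIM39. All 4 were called higher under the combination, where 23.5% of all genes were, but because of that choice the count is no test. TRIM10 and TRIM40 lie between the same positions and were below the limit of 0.5 TPM. TRIM39, which has 0.43 ± 0.11 under the combination (adjusted p = 0.0017) and 0.29 ± 0.11 under supernatant 1/2 (0.0314), kept these calls in 12 and 3 of 16 alternatives. The first was lost without the combination 2 h (0.106) or 24 h library (0.0597). It shares reads with a read-through gene, TRIM39-RPP21. TRIM26 had 18.65, 16.02, 16.1 and 15.8 TPM in unstimulated cells and 18.97, 28.01, 28.9 and 27.1 TPM under IFNγ 100 ng/ml, all above the unstimulated range, at 2 h by little. Its log2 value rose by 0.69 ± 0.08 (adjusted p = 1.81e-07).

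The direct contrast of IFNγ 100 with TNFα 10 ng/ml called 15 members higher under IFNγ and 8 lower, beside 11.1% and 13.4% of all genes. TRIM22 (5.61 ± 0.26), TRIM31 (2.14 ± 0.51), TRIM69 and TRIM21 (1.43 ± 0.13) led the first set. TRIM8 (-1.37 ± 0.14, adjusted p = 7.99e-08), TRIM16, TRIM16L (-0.96 ± 0.13, 2.96e-06) and TRIM47 led the second. TRIM47, chosen after its values were seen, had 69.5, 80.2, 53.9 and 51.7 TPM in unstimulated cells and 158.1, 115.4, 110.9 and 116.3 TPM under TNFα 10 ng/ml, without overlap. It differed by -0.88 ± 0.07 (9.55e-11).

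Adding TNFα to IFNγ 100 ng/ml called 9 members higher and 7 lower, beside 16.1% and 13.4% of all genes. TRIM36 (1.19 ± 0.26, adjusted p = 0.000679) and TRIM8 (1.12 ± 0.14, 2.08e-06) rose and TRIM6 fell by 0.74 ± 0.14 (0.000229). TRIM22 also gained 0.47 ± 0.15 (0.0189). Adding IFNγ to TNFα called 12 members higher and 6 lower, beside 12.5% and 11.2%. TRIM22 (6.08 ± 0.25, 3.05e-16) and TRIM69 (2.19 ± 0.16, 3.28e-10) rose most, and TRIM45 fell by 0.80 ± 0.18 (0.00137). These comparisons share libraries with each other. In the interaction of the cytokines, which asks whether the combination departs from the sum of the log2 effects, no member was called by edgeR or DESeq2, 3 had an unadjusted p under 0.05, and 0.525% of all genes were called. Without the unstimulated 2 h library 1 member was called. TRIM21 had -0.50 ± 0.19 (adjusted p = 0.344) in that test.

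At lower doses, IFNγ 1 ng/ml called 12 members, beside 7.53% of all genes, 10 of them higher. TRIM22 had 1.13, 5.96, 14.6 and 26.9 TPM at 1 ng/ml, and its rise was 0.98 ± 0.15 log2 units larger at 100 ng/ml (adjusted p = 0.00174). It was the only member called between these doses, beside 0.173% of all genes, and DESeq2 called none. TRIM69 differed by 0.04 ± 0.14 between them (adjusted p = 1), with a 95% interval from -0.24 to 0.31. At 0.01 ng/ml no member was called by edgeR or DESeq2, beside 0.0415% of all genes, and 3 had an unadjusted p under 0.05. They were TRIM69 (0.46 ± 0.16), TRIM14 (0.16 ± 0.08) and TRIM25 (0.10 ± 0.05), named after their values were seen. With 46 members tested, a few unadjusted p-values under 0.05 arise by chance, so these 3 do not establish a response at this dose.

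TNFα 1 ng/ml called 14 members, beside 18.9% of all genes, and 9 without its 12 h library. TNFα 0.1 ng/ml called 4, beside 5.62%. TRIM8 was at 43.95, 60.8, 45.04 and 41.9 TPM at 0.1 ng/ml and at 43.2, 72.8, 77.4 and 65.0 TPM at 1 ng/ml, all above the unstimulated range. Its log2 fold changes were 0.67 ± 0.14 (adjusted p = 0.00451), 1.12 ± 0.14 (2.96e-06) and 1.34 ± 0.14 (1.44e-07) at the 3 doses. TRIM47, TRIM25 and, in the other direction, TRIM6 were also called at 0.1 ng/ml. Between 10 and 1 ng/ml no member was called by edgeR or DESeq2, 1 had an unadjusted p under 0.05, and 0% of all genes were called.

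Supernatant 1/200 called 16 members, 12 higher and 4 lower, beside 10.8% of all genes. TRIM22 (4.28 ± 0.29, adjusted p = 2.32e-11), TRIM69 (1.84 ± 0.16, 9.15e-09) and TRIM21 (1.77 ± 0.14, 1.68e-09) were higher than in unstimulated cells. TRIM22 was a further 0.80 ± 0.18 higher at 1/2 (0.00104), while TRIM21 differed by 0.22 ± 0.13 (0.205), with a 95% interval from -0.03 to 0.46. TRIM8 had 30.85, 29.99, 34.7 and 42.9 TPM at 1/200, which overlapped the unstimulated range. Between the 1/2 and 1/200 dilutions 17 members were called, beside 31.8% of all genes. TRIM15 (2.49 ± 0.34, 1.66e-06), TRIM31 (1.75 ± 0.40, 0.00138), TRIM36 (1.14 ± 0.26, 0.00126) and TRIM8 (1.03 ± 0.14, 4.84e-06) were higher at 1/2, while TRIM69 differed by 0.00 ± 0.14 (adjusted p = 1). At 1/20000 no member was called by edgeR or DESeq2 or had an unadjusted p under 0.05, beside 0.00691% of all genes called.

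**Figure D4:**
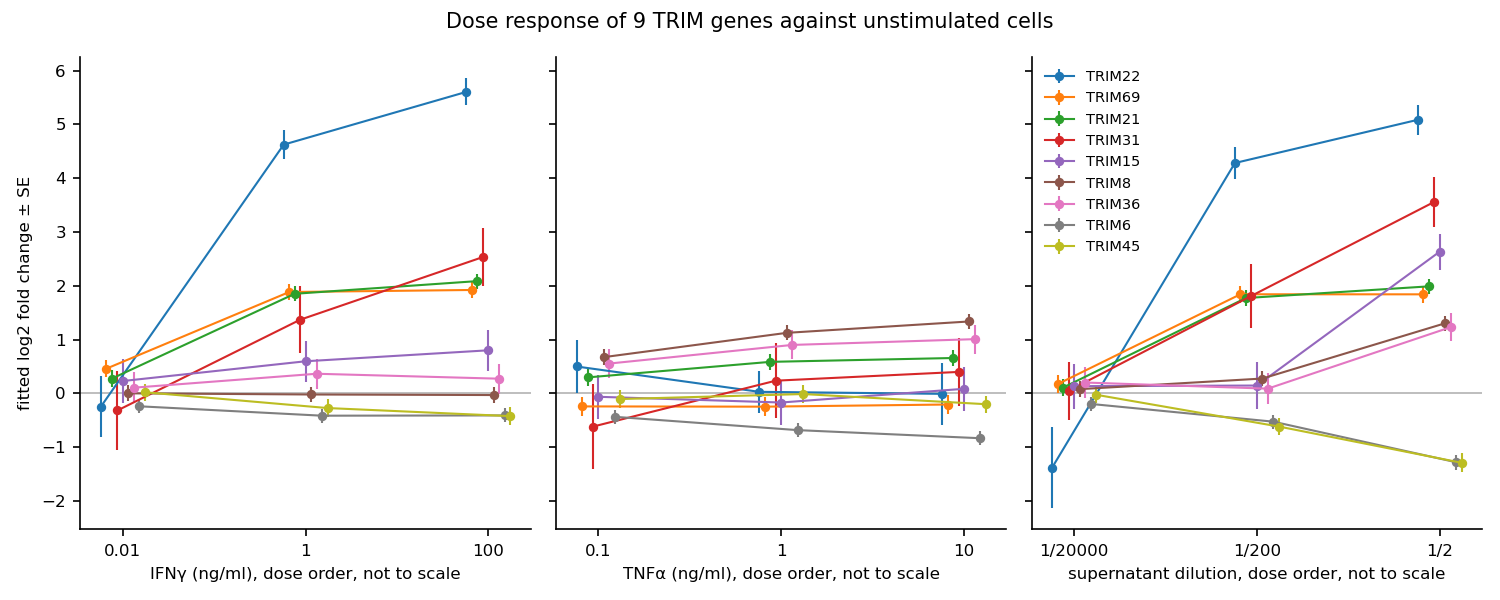
Fitted log2 fold change ± SE (vertical axis) against unstimulated cells at the 3 doses of IFNγ, TNFα and supernatant (horizontal axes, dose order) for 9 members, 4 libraries per point. TRIM22, TRIM21 and TRIM69 are raised at IFNγ 1 ng/ml and supernatant 1/200, TRIM8 stands at 0.67, 1.12 and 1.34 over the doses of TNFα, and TRIM15 and TRIM36 rise between supernatant 1/200 and 1/2.

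Supernatant 1/2 and the combination differed in 3 members that were higher under supernatant and 2 that were lower, beside 4.51% and 3.95% of all genes. TRIM31 (1.31 ± 0.38, adjusted p = 0.0296), TRIM15 (0.99 ± 0.29, 0.033) and TRIM4 (0.28 ± 0.09, 0.0429) were higher under supernatant. TRIM22 fell by 0.99 ± 0.16 (0.000254) and TRIM25 fell by 0.32 ± 0.05 (5.87e-05) relative to the combination. Without the 24 h supernatant library 8 members were called, and without other single libraries as few as 2. TRIM69 differed by -0.14 ± 0.14 (0.62), with a 95% interval from -0.42 to 0.14.

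Changes of effect with duration were called for 6 members under IFNγ 100 ng/ml, beside 3.43% of all genes, and for 1 under TNFα 10 ng/ml, beside 2.68%. The combination had 14, beside 21.5%, and supernatant 1/2 had 11, beside 16.2%. Without the unstimulated 2 h library these counts were 0, 0, 1 and 1. TRIM14 gained 0.37 ± 0.06 log2 units per doubling of duration under IFNγ (adjusted p = 0.000231) and 0.44 ± 0.06 under the combination (6.31e-06). Without the unstimulated 2 h library these slopes were 0.20 (0.5165) and 0.26 (0.0627). The decrease of TRIM16L deepened over time, with slopes of -0.40 ± 0.10 under IFNγ (0.0225) and -0.58 ± 0.10 under the combination (0.000215). Its log2 ratios under the combination were 0.21, -0.01, -0.97 and -1.95 at 2, 6, 12 and 24 h. Without the unstimulated 2 h library its slopes were -0.51 (0.22) and -0.69 (0.0119).

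Genes that carry TRIM domains under other symbols moved too. Of 7 such genes 4 were tested. Under the combination 3 were higher and 1 lower, beside 23.5% and 22.4% of all genes, with a median of 1.48. PML, the organizer of nuclear bodies, had 19.97, 26.9, 29.1 and 39.1 TPM in unstimulated cells and 59.99, 167.8, 192.5 and 246.8 TPM under the combination, a rise of 2.56 ± 0.20 (adjusted p = 6.57e-10). MEFV, which encodes the inflammasome sensor pyrin, had 1, 0, 2 and 0 counts in unstimulated cells, 20, 27, 27 and 65 under TNFα 10 ng/ml and 25, 94, 178 and 416 under the combination. The pooled ratio of the combination to unstimulated cells was 254-fold, with a 95% exact interval from 86.6 to 1235 that covers counting error only. MID1, a microtubule-bound ligase mutated in Opitz syndrome, fell by 0.89 ± 0.07 under the combination (3.78e-11), and MID2 rose by 0.40 ± 0.13 (0.0133).

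Of 17 genes for RNA sensing that TRIM proteins act on, 8 were higher and 1 lower under IFNγ, 9 and 1 under TNFα, 13 and 1 under the combination and 14 and 1 under supernatant 1/2. Of all genes, 9.38% were higher and 6.47% lower under IFNγ, and 14.3% and 10.1% under TNFα. The combination had 23.5% and 22.4%, and supernatant 1/2 had 22.6% and 20.8%. The median of the 17 in the combination was 0.77. IFIH1, which encodes the RNA sensor MDA5, rose by 3.02 ± 0.18 (adjusted p = 4.26e-12) and RIGI, the TRIM25 substrate, rose by 2.48 ± 0.13 (2.58e-13). IKBKE, which encodes the kinase IKKε, rose by 2.13 ± 0.18 under TNFα (3.49e-09). Of 15 ubiquitin chain enzymes, 7 were higher and 2 lower under the combination, beside 23.5% and 22.4% of all genes, with a median of 0.09. UBE2L6, a conjugating enzyme for ISG15, rose by 3.55 ± 0.24 (6.05e-11) and the deubiquitinase USP15 rose by 0.74 ± 0.06 (6.60e-11).

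Of 12 interferon pathway genes, 9 were higher under IFNγ and 8 under TNFα, and all 12 under the combination and under supernatant 1/2. IRF1, a factor that binds the ISRE, rose by 4.49 ± 0.34 under IFNγ (adjusted p = 2.23e-09) and by 1.54 ± 0.32 under TNFα (0.00108). Of 10 NF-κB genes, 2 were higher under IFNγ, 8 under TNFα, and all 10 under the combination and under supernatant 1/2. Of all genes, 9.38% were higher under IFNγ, 14.3% under TNFα, 23.5% under the combination and 22.6% under supernatant 1/2.

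Total counts per library ran from 9586125 to 16270128. Epithelial identity was checked with 10 markers. KRT8 (695.8 to 1552 TPM), KRT18, KRT7, KRT19 and EPCAM (37.3 to 92.6 TPM) were present in all 44 libraries. At lower levels, CDH1 (1.71 to 12.4 TPM) and PAX8 (4.00 to 15.7 TPM) were also present in each. MUC16, WT1 and ESR1 stayed under 1 TPM. Of 11 T cell and leukocyte markers none was tested for want of counts, CD3E was at 0 in all 44 libraries and the summed level ran from 0.0658 to 0.418 TPM under supernatant 1/2, beside 0.257 to 0.548 TPM in unstimulated cells. Summed epithelial markers, mostly KRT8 and KRT18, ran from 1765 to 3166 TPM under supernatant 1/2, which overlapped the unstimulated range (3057 to 3353), and from 1896 to 3054 under the combination, which did not. Of the 7 tested, 1 was higher and 3 lower under the combination, beside 23.5% and 22.4% of all genes. Under supernatant 1/2, 1 was higher and 4 lower, beside 22.6% and 20.8%. The higher one was PAX8, by 0.62 ± 0.13 (adjusted p = 0.000264) and 0.39 ± 0.13 (0.0166). The part of these markers in the results was not tested. In bulk RNA, fewer cells that express a gene and less of its RNA per cell cannot be told apart.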

How the data were processed

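RNA of 44 OVCAR5 libraries was made with a stranded poly(A) kit, per the labels' protocols. The submitters' processing notes name Salmon, STAR, DESeq2 and GRCh38 without settings. Neither the annotation nor the strand counted is given in the sources used here. The authors deposited, for each library, expected counts per gene estimated by Salmon, of which 18.6% to 20.6% of genes had a fractional value, and TPM values divided by an effective length of that library. Of 33538 gene IDs, 33113 were named from a table of gene names, 343 from GENCODE v29 and 82 not at all.

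Expected counts were rounded and genes kept by filterByExpr on treatment (minimum count 10, minimum total 15), leaving 14469 genes. edgeR 4.0.16 in R 4.3.3 (with limma 3.58.1) fitted all 44 libraries with TMM factors, duration as a factor, treatment, and a slope on log2 duration per treatment (24 coefficients, 20 residual degrees of freedom). Tests were robust quasi-likelihood F tests with Benjamini-Hochberg adjustment over all genes. An SE is the fold change divided by the square root of F, and intervals are 95%. Across genes, edgeR estimated a median biological coefficient of variation of 7.49%. The procedure was tested on simulated data. Alternatives were DESeq2 1.42.0, its size factors in edgeR, no filter, no slopes, fewer libraries or durations, each library left out, a member limit of 1 TPM and, chosen after seeing the data, summed counts of genes that share reads. Depth was 9586125 to 16270128 counts per library, and counting intervals cover counting error only.

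Members and gene lists were chosen with earlier results of these data known. Library values are given for the 8 members with the largest fold changes against unstimulated cells in the 4 strong treatments, the 4 most negative ones and the chromosome 11 cluster, with examples for each structural class and list. TRIM4, TRIM16, TRIM26, TRIM39 and TRIM47 were added after their values were seen. Same-numbered replicates are not the same duration across groups, and duration itself is in the fit. Promoter windows came from RefSeq (GRCh38.p14).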

Additional observations from a re-analysis of the deposited data

Results flagged for a closer look

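For 13 named members, the log2 ratios to the unstimulated library of the same duration were compared across the 4 durations of each strong treatment, and a duration was noted where its gap to the nearest other one divided by the whole range exceeded the 95% critical value of Dixon's test. This happened in 4 of 52 groups of 4, where chance gives about 1 in 20, and durations are not replicates. In all 4 the duration that stood apart was 2 h. TRIM69 under supernatant 1/2 had a log2 ratio of 1.34 at 2 h and 1.93 to 2.05 later. TRIM36 under supernatant 1/2 had 0.31 at 2 h and 1.38 to 1.49 later. TRIM6 under supernatant 1/2 had -0.30 at 2 h and between -1.49 and -1.70 later. TRIM5 under IFNγ 100 ng/ml had 0.11 at 2 h and 1.00 to 1.14 later.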

How the results depend on the processing

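Of 93 calls of any member in the 4 strong comparisons, 25 held in each of the alternatives run for it (up to 16), and 8 held in at most 0.5 of them: TRIM39, TRIM3 and TRIM68 under supernatant 1/2 (3, 4 and 5), TRIM37 and TRIM9 under the combination (6 and 7), TRIM56 and TRIM66 under TNFα (6 and 7) and TRIM6 under IFNγ (8). Of 832 fold changes of the 13 members given in full under an alternative, 780 kept their side of the threshold, 47 lost the call, 5 gained it and none reversed. Of 366 counts of called members, 307 stayed within 1.5 times the reported count. With only the 2 and 6 h libraries, the members called against unstimulated cells were 3 for IFNγ 100 ng/ml, 7 for TNFα 10 ng/ml, 12 for the combination, 12 for supernatant 1/2, 3 for IFNγ 1 ng/ml, 6 for TNFα 1 ng/ml and 3 for supernatant 1/200. They were 8 for IFNγ against TNFα, 5 for the combination against IFNγ, 4 against TNFα, 0 for supernatant 1/2 against the combination, 0 between IFNγ doses and 6 between supernatant dilutions. With only the libraries compared, the counts in the same order were 5, 7, 13, 16, 4, 7 and 10, then 10, 7, 5, 2, 0 and 7, and TNFα 0.1 ng/ml had 0. With only 12 and 24 h, TNFα 1 ng/ml had 9, TNFα 0.1 ng/ml 0, supernatant 1/2 against the combination 3 and the IFNγ doses 2. Fewer libraries leave fewer residual degrees of freedom. Without slopes, TNFα 0.1 ng/ml had 1, supernatant 1/200 had 10, supernatant 1/2 against the combination 1 and the IFNγ doses 0, and the cause was not tested. Supernatant 1/2 against the combination had 2 with DESeq2 and 3 without the filter, and the IFNγ doses had 0 with DESeq2. Leaving out 1 library gave 9 to 13 for TNFα 1 ng/ml, 0 to 1 for the interaction and 2 to 8 for supernatant 1/2 against the combination. For changes with duration it gave 0 to 7 under IFNγ, 0 to 2 under TNFα, 1 to 15 under the combination and 1 to 12 under supernatant 1/2. TRIM22, TRIM31 and TRIM15 rest on few unstimulated counts, which limits the precision of their ratios.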
